A study of Mus musculus with 12 samples.

Results

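Calcium/calmodulin kinases were followed by their messenger RNA in mouse brain and liver. The set named 10 genes, and every probe set listed with 1 of them was used, whatever its level. Of the 10, 9 had a listed probe set, which gave 27 probe sets of 45037 measured. They were Camk2a with 6 probe sets, Camk2d, Camk4 and Camkk2 with 4 each, Camk1d with 3, Camk2g and Camk1 with 2 each, and Camk2b and Camkv with 1 each. Camkk1 had no listed probe set and was not analysed here. The genes were chosen in part by measured values, the disagreement of Camk2a probe sets between preservations in these arrays, so differences between preservations are described below without a test.

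The tissues came from male BALB/c mice aged 10 weeks, and 12 arrays were made, 1 for each combination of tissue, preservation and time. Fresh-frozen (FF) pieces of brain or liver went into RNAlater, and their RNA was labelled as antisense RNA with a 3' in vitro transcription kit. Formalin-fixed, paraffin-embedded (FFPE) pieces spent 24 h in 10% formalin and 7 d as a block at room temperature, were cut at 10 µm, and their RNA was labelled as DNA fragments with a whole-transcript kit made for such material. Organs were taken at 0 h after death, from mice kept for 3 h at room temperature, or from mice kept for 18 h at 4 °C, a delay meant to resemble that before an autopsy. Preservation and labelling kit always changed together, as did time and temperature, and their parts cannot be told apart. The labels gave neither the part of the brain taken, nor the number of animals, nor whether arrays shared an animal, and each condition had 1 array. P-values therefore did not measure the spread between animals, nor that between repeated arrays. They rested on how far changes with time in FF departed from those in FFPE, within brain and within liver. Whatever both preservations had in common at a given time, a shared animal included, counted as change with time and not as spread.

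Calcium that enters a cell binds calmodulin, and the loaded calmodulin opens the kinases of this family by displacing an inhibitory segment. CaMKII, built from alpha, beta, delta and gamma subunits, forms large rings and is abundant at excitatory synapses, where its alpha and beta subunits are a textbook part of synaptic plasticity. CaMKI and CaMKIV instead need a further phosphate from an upstream CaM kinase kinase, and CaMKIV acts in the nucleus on transcription. Camkv encodes a kinase-like protein of neurons that is thought to lack catalytic activity.

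To show the sequence context of a pair of genes that were lower in liver in both preservations and of 1 that was not, 3 promoter windows are printed, each of 250 bases upstream of a RefSeq start on GRCm38.p6. That start need not be the outermost of the gene. By the listed gene extents the Camk2b window lay inside its gene (5969629 to 6066357). The Camkv window ran past the listed start of its gene (107935851), and the Camk1 window lay outside its gene. Camk2b (chr11:6065749-6065998, minus strand) and Camkv (chr9:107935670-107935919, plus strand) are that pair. Camk1 (chr6:113343923-113344172, minus strand) was the 1 measured gene with no tissue difference past the threshold in FFPE. Capitals mark exact matches, on either strand, to GGGCGG (the GC box, a letter pattern bound by Sp1-type factors), TGACG (the core of the cAMP response element, to which the CaMKIV target CREB binds) or TATAAA (the TATA box), and matches may overlap.
Camk2b: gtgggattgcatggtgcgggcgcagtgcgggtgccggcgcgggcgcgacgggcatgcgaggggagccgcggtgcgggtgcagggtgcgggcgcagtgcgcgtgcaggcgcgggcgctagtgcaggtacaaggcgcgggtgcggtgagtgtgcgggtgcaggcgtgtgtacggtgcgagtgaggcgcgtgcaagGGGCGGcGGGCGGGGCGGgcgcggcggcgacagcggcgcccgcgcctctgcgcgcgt
Camkv: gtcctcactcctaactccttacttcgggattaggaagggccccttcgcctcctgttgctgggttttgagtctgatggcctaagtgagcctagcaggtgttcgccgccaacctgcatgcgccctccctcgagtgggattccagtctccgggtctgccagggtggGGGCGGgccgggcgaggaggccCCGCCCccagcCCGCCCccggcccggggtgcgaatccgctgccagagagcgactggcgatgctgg
Camk1: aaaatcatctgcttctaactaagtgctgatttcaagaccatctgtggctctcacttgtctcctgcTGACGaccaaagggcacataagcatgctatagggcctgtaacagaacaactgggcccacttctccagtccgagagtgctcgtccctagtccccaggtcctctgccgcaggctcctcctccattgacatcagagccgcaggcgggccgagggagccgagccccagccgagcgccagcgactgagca
Camk2b and Camkv each held 3 GC box matches and no match to the other motifs, while Camk1 held 1 core of the cAMP response element and no GC box. RefSeq windows were at hand for 6 of the 9 measured genes, 7 windows in all because Camk1d had a pair, and windows of Camk2a, Camk2g and Camk4 were not used here. A GC box stood in 6 of these 7 windows, against 32.7% of all 32851 promoter windows and 42.6% of those of protein-coding genes. The core of the cAMP response element stood in 1 of 7, against 17.8% of all windows and 20.2% of those of protein-coding genes. The TATA box stood in 0 of 7, against 12.4% and 11.6%. Windows of Camk2b (78.4% G or C), Camkk2 (72.4%), Camk2d (68.4%), Camkv (67.6%) and Camk1 (58%) lay above the median of 52.4% over all windows. The median over windows of protein-coding genes was 55.6%, near the value of Camk1. For Camk1d 1 window had 69.2% and the other 48.4%. These matches are descriptions of letters and no evidence of binding.

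Array values were log2 intensities, on which a difference of 1 is 2-fold. The array median lay between 4.65 and 4.68 for FF and between 4.8 and 4.89 for FFPE, and values ran from 2.66 to 13.44. The tissue labels were checked with markers. Of 8 neuron markers, 8 passed as lower in FF liver (median -5.87) and 8 in FFPE liver (median -4.36). Of 15 hepatocyte markers, 14 passed as higher in FF liver (median 6.74) and 15 in FFPE liver (median 7). Hepatocyte markers were also read on the brain arrays, with a higher mean at 0 h in FF. In FF brain the mean level over the hepatocyte markers was 6.26 at 0 h, against 5 at 3 h and 4.95 at 18 h. This mean includes Ttr, also listed for choroid plexus, which rose in brain by 5.4 at 3 h (change shared by FF and FFPE). Without Ttr, left out after seeing the data, the means were 6.09, 4.45 and 4.43 in FF brain. In FFPE brain the means were 5.04, 5.11 and 5.06 with Ttr, and 4.99, 4.58 and 4.57 without it. Of the 15 markers, 1 passed as lower in brain at 3 h and at 18 h (Apoa1), and 1 as higher (Ttr). Over all probe sets 0.0466% and 0.0178% passed in either direction. Levels of different probe sets are not set against each other below, because probes differ in affinity.

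Most kinase probe sets were higher in brain than in liver. In FF, 22 of the 27 probe sets were lower in liver than in brain and 2 were higher (limma on all 45037 probe sets, adjusted p under 0.05, mean of the 3 times), and each of the 9 genes had at least 1 lower probe set. Over all probe sets 27.6% were called lower and 32% higher. Without the FF brain array at 0 h, the FF brain array with the highest mean over the hepatocyte markers, 21 were lower and 1 higher. The median difference was -3.03 over the 27 and 0.08 over all probe sets. In FFPE, 22 of the 27 were lower and 0 higher, against 24.3% and 22.6% of all probe sets, with a median of -2.21 against -0.01. The 22 lower probe sets of FFPE covered 8 genes, all but Camk1. In brain and liver as whole pieces, fewer cells of a type and less RNA per cell cannot be told apart.

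**Figure D1:**
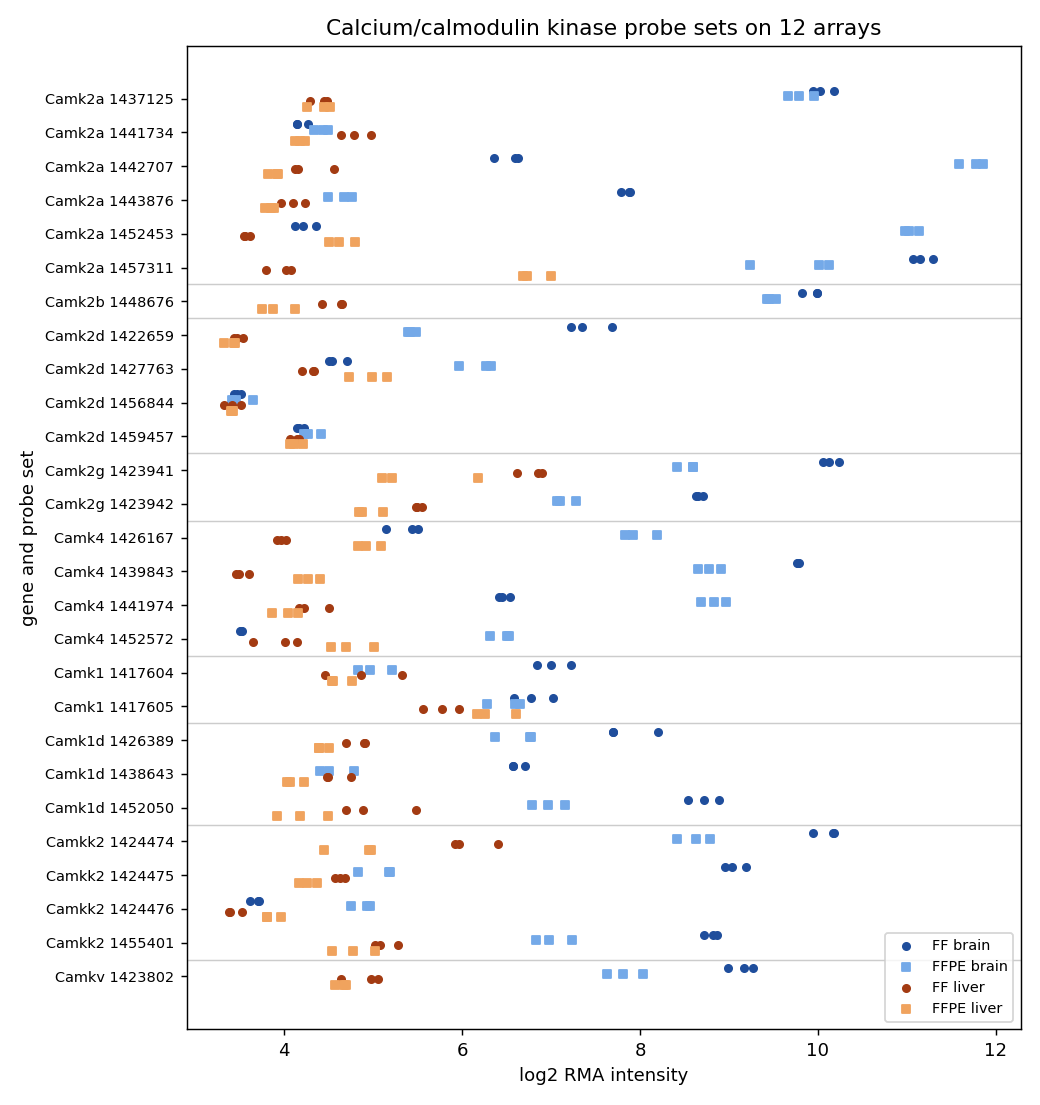
Log2 RMA intensity (horizontal axis) of each of the 27 kinase probe sets (rows), 1 point per array: circles are FF, squares FFPE, blue brain, brown and orange liver. In FF the 3 brain arrays lay above the 3 liver arrays without overlap for 23 probe sets, and in FFPE for 25.

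Without overlap between 3 brain and 3 liver arrays, 23 of the 27 probe sets were lower in liver in FF, against 27.7% of all probe sets, and 2 were higher, against 35.3%. In FFPE 25 were lower, against 28.7%, and 0 higher, against 25.9%. At least a 2-fold lower mean in liver was seen for 20 of 27 in FF (14.5% of all) and for 19 of 27 in FFPE (9.35% of all). Against the median of its own array, 20 of the 27 lay above it on all 3 FF brain arrays and 19 on all 3 FFPE brain arrays. On the liver arrays 7 of the 27 did so in FF and 4 in FFPE.

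Camk2a encodes the alpha subunit of CaMKII, the major CaMKII subunit of forebrain excitatory neurons. Its probe set 1437125_PM_at read 10.02, 9.94 and 10.18 on the FF brain arrays at 0, 3 and 18 h, and 4.48, 4.29 and 4.45 on the FF liver arrays. On the FFPE arrays it read 9.66, 9.79 and 9.96 in brain and 4.52, 4.26 and 4.45 in liver. All 6 brain arrays were high, all 6 liver arrays low, and liver was lower by a log2 difference of -5.64 ± 0.12 (SE) in FF and -5.39 ± 0.12 in FFPE (limma adjusted p = 3.65e-13 and 6.37e-13). This was the only Camk2a probe set with tissue differences of near-equal size in both preservations.

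For the other Camk2a probe sets the tissue difference depended on which preservation was read. Probe set 1457311_PM_at, the Camk2a probe set with the highest mean, gave 11.07, 11.15 and 11.29 in FF brain and 4.02, 4.08 and 3.8 in FF liver, a difference of -7.2 ± 0.19 (adjusted p = 2.23e-12). In FFPE it gave 10.01, 10.12 and 9.24 in brain and 6.69, 6.73 and 7 in liver, a difference of -2.98 ± 0.19 (adjusted p = 1.88e-08). FFPE liver was thus raised and FFPE brain lowered, without overlap between the tissues. Probe set 1442707_PM_at had the opposite pattern in brain, 6.63, 6.36 and 6.59 on FF arrays but 11.59, 11.78 and 11.85 in FFPE brain. Its liver arrays read 4.12, 4.56 and 4.16 in FF and 3.82, 3.92 and 3.93 in FFPE, so that liver was lower by -2.25 ± 0.14 in FF and by -7.85 ± 0.14 in FFPE (adjusted p = 9.34e-09 and 2.48e-13).

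The remaining Camk2a probe sets were near the liver level in 1 of the preservations or in both. Probe set 1452453_PM_a_at read only 4.12, 4.21 and 4.36 in FF brain, against 3.62, 3.56 and 3.55 in FF liver (-0.65 ± 0.12, adjusted p = 0.000369). In FFPE it read 11.02, 10.98 and 11.13 in brain against 4.8, 4.5 and 4.62 in liver (-6.4 ± 0.12, adjusted p = 2.69e-13). The reverse held for probe set 1443876_PM_at. It stood at 7.79, 7.88 and 7.89 in FF brain against 4.1, 4.23 and 3.97 in FF liver (-3.75 ± 0.12, adjusted p = 1.03e-11), and at 4.49, 4.67 and 4.76 against 3.79, 3.85 and 3.89 in FFPE (-0.8 ± 0.12, adjusted p = 7.15e-05). Probe set 1441734_PM_at lay under 5 on every array, with 4.14, 4.15 and 4.27 in FF brain, 4.64, 4.98 and 4.79 in FF liver, 4.34, 4.49 and 4.44 in FFPE brain, and 4.18, 4.23 and 4.12 in FFPE liver. It was higher in liver in FF (0.62 ± 0.1, adjusted p = 0.000159) and did not pass in FFPE (-0.25 ± 0.1, adjusted p = 0.0618).

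**Figure D2:**
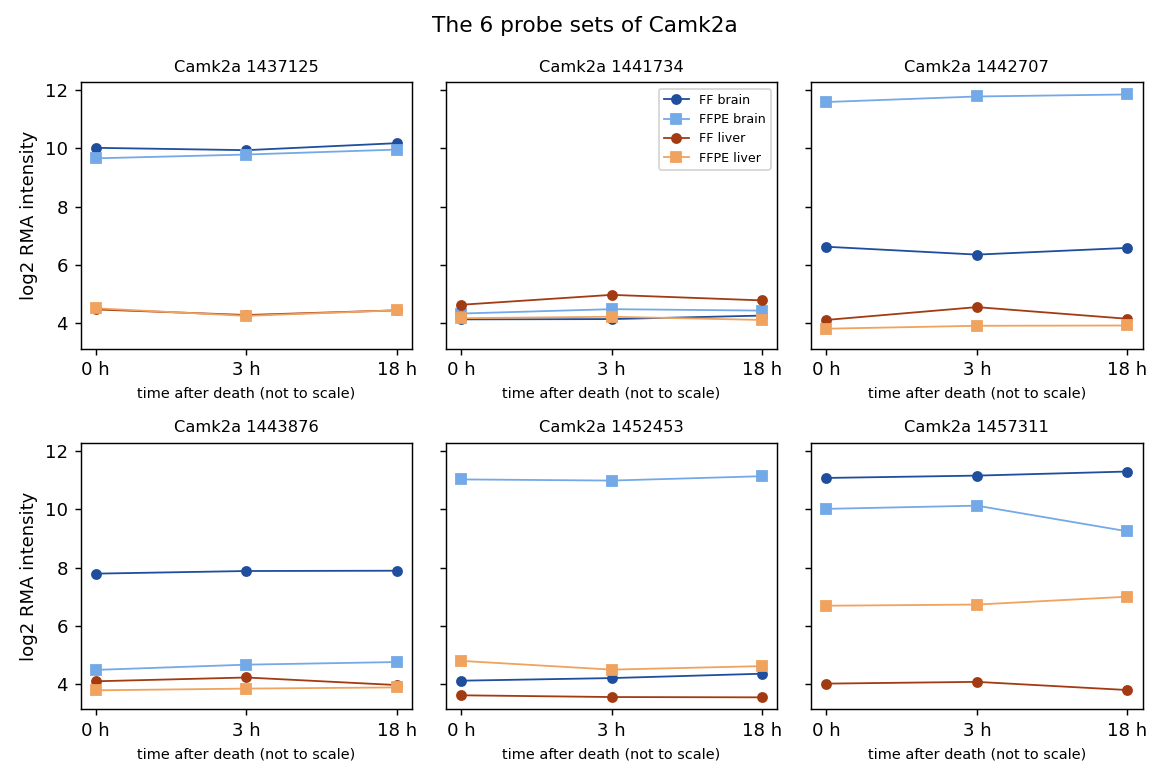
Log2 RMA intensity (vertical axis) of the 6 Camk2a probe sets, 1 panel each, at 0, 3 and 18 h after death (horizontal axis, not to scale); each point is 1 array and lines join arrays of a tissue and preservation. In 1437125 the FF and FFPE brain lines lie together between 9.66 and 10.18, in 1442707 and 1452453 the FFPE brain line lies at 10.98 or above and the FF brain line at 6.63 or below, and in 1443876 the order of the brain lines is turned.

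Camk2b, which encodes the beta subunit that ties CaMKII to actin, had 1 probe set. It read 9.82, 9.99 and 9.99 in FF brain against 4.65, 4.43 and 4.64 in FF liver, and 9.43, 9.53 and 9.45 in FFPE brain against 3.75, 3.88 and 4.12 in FFPE liver. Liver was lower by -5.36 ± 0.12 in FF and -5.55 ± 0.12 in FFPE (adjusted p = 8.86e-13 and 8.96e-13), and no liver array came near a brain array.

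Camk2d and Camk2g encode the delta and gamma subunits, which are found in many tissues beside brain. Camk2d probe set 1422659_PM_at read 7.22, 7.69 and 7.35 in FF brain and 5.42, 5.39 and 5.48 in FFPE brain. Its liver arrays lay between 3.44 and 3.54 in FF and between 3.33 and 3.45 in FFPE, and the tissue differences were -3.94 ± 0.12 and -2.02 ± 0.12 (adjusted p = 1.21e-11 and 1.38e-08). Probe set 1427763_PM_a_at gave 4.71, 4.5 and 4.54 in FF brain against 4.33, 4.2 and 4.34 in FF liver, and 6.27, 5.96 and 6.32 in FFPE brain against 4.73, 4.99 and 5.16 in FFPE liver. It passed in FFPE (-1.22 ± 0.13, adjusted p = 2.7e-06) and not in FF (-0.29 ± 0.13, adjusted p = 0.061). The other two Camk2d probe sets lay low on every array and passed in neither preservation (1456844_PM_at at -0.06 and -0.1, 1459457_PM_at at -0.05 and -0.17).

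Camk2g kept a level above the array median in FF liver at both probe sets. Some probe sets of Camk1, Camk1d and Camkk2 did so too, and none of Camk2d. Probe set 1423941_PM_at read 10.12, 10.06 and 10.24 in FF brain against 6.62, 6.85 and 6.9 in FF liver, and 8.42, 8.6 and 8.59 in FFPE brain against 5.21, 6.18 and 5.1 in FFPE liver. Probe set 1423942_PM_a_at read 8.63, 8.65 and 8.71 against 5.55, 5.48 and 5.49 in FF, and 7.07, 7.1 and 7.28 against 5.11, 4.87 and 4.84 in FFPE. Both fell without overlap from brain to liver, by -3.35 ± 0.18 and -3.16 ± 0.12 in FF and by -3.04 ± 0.18 and -2.21 ± 0.12 in FFPE (largest of the 4 adjusted p = 7.61e-09). Both probe sets were made from 1 sequence record. The same held for both probe sets of Camk1, for a pair of the 3 of Camk1d and for 3 of the 4 of Camkk2, so that 22 distinct records stood behind the 27 probe sets.

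Camk4, the nuclear kinase, had 4 probe sets. Probe set 1439843_PM_at read 9.79, 9.76 and 9.78 in FF brain against 3.49, 3.6 and 3.46 in FF liver, and 8.78, 8.65 and 8.91 in FFPE brain against 4.16, 4.27 and 4.4 in FFPE liver. Its tissue differences of -6.26 ± 0.12 and -4.5 ± 0.12 (adjusted p = 3.05e-13 and 4.63e-12) include the largest FF difference of the gene. In the other 3 probe sets the FFPE brain arrays were the higher ones, and the difference was larger in FFPE. Probe set 1441974_PM_at gave 6.54, 6.45 and 6.41 in FF brain and 8.68, 8.83 and 8.97 in FFPE brain, against 4.17 to 4.51 in FF liver and 3.86 to 4.16 in FFPE liver (-2.17 ± 0.13 in FF, -4.81 ± 0.13 in FFPE, adjusted p = 5.71e-09 and 3.06e-12). Probe set 1426167_PM_a_at gave 5.44, 5.15 and 5.5 in FF brain and 7.92, 7.83 and 8.19 in FFPE brain, against 3.92 to 4.02 and 4.83 to 5.09 in liver (-1.39 ± 0.12 and -3.03 ± 0.12, adjusted p = 3.01e-07 and 1.36e-10).

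The direction of the tissue difference at Camk4 probe set 1452572_PM_at was not the same in FF and FFPE. It read 3.52, 3.5 and 3.53 in FF brain and 4.14, 4.01 and 3.65 in FF liver, so that liver was higher by 0.42 ± 0.12 (adjusted p = 0.00972). In FFPE it read 6.51, 6.31 and 6.53 in brain and 5.01, 4.53 and 4.7 in liver, a difference of -1.7 ± 0.12 (adjusted p = 6.3e-08). The FF call was lost when the FF brain array at 0 h, the FF brain array at 18 h or the FF liver array at 3 h was left out (0.27 to 0.53, adjusted p 0.00443 to 0.123 over the 12 arrays left out in turn). All 6 of its FF arrays lay below the median of their array.

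CaMKI is represented by Camk1, the alpha form, and Camk1d, the delta form. By the largest difference of each gene, Camk1 had the smallest tissue difference of the 9 genes in either preservation. Probe set 1417604_PM_at read 7, 6.84 and 7.22 in FF brain against 5.33, 4.46 and 4.86 in FF liver (-2.14 ± 0.17, adjusted p = 1.41e-07), and 4.96, 4.83 and 5.21 against 4.55, 4.76 and 4.54 in FFPE (-0.38 ± 0.17, adjusted p = 0.0808). Probe set 1417605_PM_s_at, a type that can read transcripts of more than 1 gene, gave 7.02, 6.58 and 6.78 against 5.78, 5.56 and 5.97 in FF (-1.02 ± 0.15, adjusted p = 8.03e-05), and 6.28, 6.65 and 6.6 against 6.17, 6.26 and 6.61 in FFPE (-0.16 ± 0.15, adjusted p = 0.427). Tissues separated in FF at both, and in FFPE they overlapped at the second. Without the FFPE liver array at 3 h the FFPE difference of the first was -0.67 and passed (adjusted p = 0.00561), as it did without the FF liver array at 0 h or 3 h.

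Camk1d was lower in liver at all 3 of its probe sets in both preservations. Probe set 1452050_PM_at read 8.54, 8.89 and 8.72 in FF brain against 5.48, 4.89 and 4.7 in FF liver, and 6.79, 7.16 and 6.97 in FFPE brain against 4.49, 4.18 and 3.92 in FFPE liver (-3.69 ± 0.12 and -2.78 ± 0.12, adjusted p = 1.53e-11 and 3.63e-10). Probe set 1426389_PM_at gave 7.7, 8.2 and 7.7 against 4.9, 4.69 and 4.91 in FF, and 6.37, 6.76 and 6.77 against 4.5, 4.39 and 4.39 in FFPE (-3.03 ± 0.13 and -2.21 ± 0.13, adjusted p = 3.08e-10 and 1.12e-08). Probe set 1438643_PM_at gave 6.57, 6.57 and 6.71 against 4.48, 4.49 and 4.75 in FF, and 4.5, 4.4 and 4.79 against 4.07, 4.03 and 4.22 in FFPE (-2.04 ± 0.11 and -0.46 ± 0.11, adjusted p = 2.98e-09 and 0.0041). Brain arrays lay above liver arrays of the same preservation throughout.

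Camkk2 encodes a CaM kinase kinase, which phosphorylates CaMKI, CaMKIV and the energy sensor AMPK. Probe set 1424474_PM_a_at read 10.18, 9.94 and 10.17 in FF brain against 5.92, 5.96 and 6.4 in FF liver, and 8.63, 8.42 and 8.79 against 4.95, 4.98 and 4.45 in FFPE (-4 ± 0.17 and -3.82 ± 0.17, adjusted p = 2.93e-10 and 6.51e-10). Probe set 1455401_PM_at read 8.82, 8.87 and 8.72 against 5.02, 5.28 and 5.08 in FF, and 6.83, 6.98 and 7.23 against 4.54, 4.77 and 5.02 in FFPE (-3.68 ± 0.14 and -2.24 ± 0.14, adjusted p = 9.32e-11 and 2.11e-08). Both separated the tissues widely in either preservation. At probe set 1424475_PM_at the gap was wide in FF only, with 9.03, 8.96 and 9.19 in brain against 4.57, 4.68 and 4.63 in liver (-4.43 ± 0.12, adjusted p = 2.73e-12), whereas FFPE brain read 5.19, 4.83 and 5.18 against 4.17, 4.37 and 4.26 (-0.8 ± 0.12, adjusted p = 8.26e-05). Probe set 1424476_PM_at was low in FF, at 3.71, 3.62 and 3.72 in brain against 3.38, 3.53 and 3.39 in liver (-0.25 ± 0.09, adjusted p = 0.0277), and read 4.75, 4.93 and 4.97 against 3.81, 3.81 and 3.96 in FFPE (-1.02 ± 0.09, adjusted p = 4.93e-07). Its FF call did not pass without the intensity trend in limma (adjusted p = 0.0527) or with any of 4 arrays left out.

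Camkv, the kinase-like gene, read 9.27, 8.99 and 9.17 in FF brain against 4.64, 4.98 and 5.06 in FF liver, and 7.81, 7.63 and 8.03 against 4.69, 4.67 and 4.57 in FFPE. Liver was lower by -4.25 ± 0.14 in FF and -3.18 ± 0.14 in FFPE (adjusted p = 1.46e-11 and 3.61e-10), with a wide gap between the tissues.

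**Figure D3:**
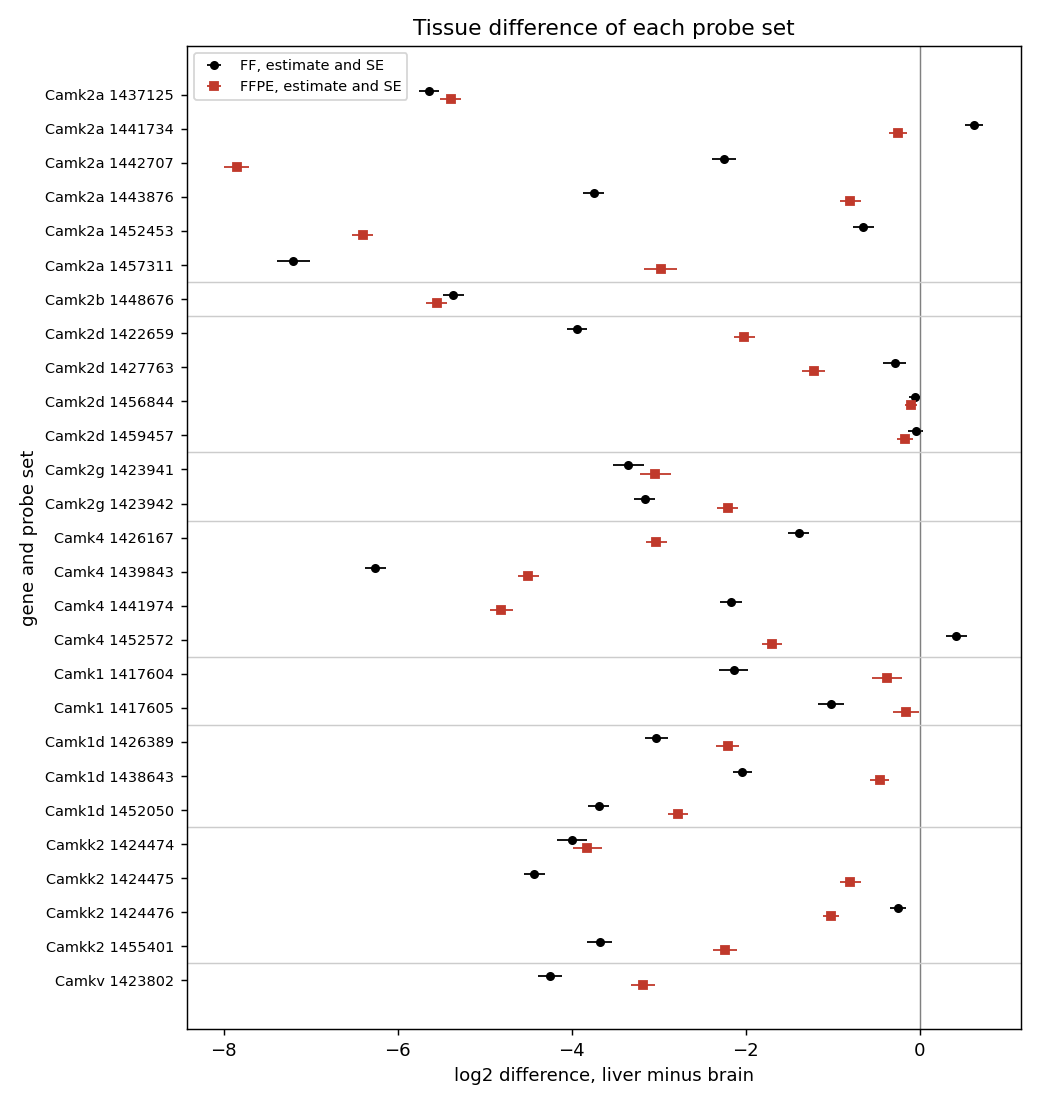
Log2 difference of liver minus brain (horizontal axis), the limma estimate over the 3 times with its SE (bars), for the 27 probe sets (rows); black circles are FF and red squares FFPE, from 3 arrays against 3. Estimates reach -7.2 in FF and -7.85 in FFPE, both at Camk2a, and 2 FF estimates lie right of 0, at 0.62 (Camk2a) and 0.42 (Camk4).

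Partners of the kinases were read through their highest probe set. Of the calmodulin genes and calmodulin-binding or CaMKII-inhibiting proteins, 8 of 9 were measured, and all 8 were lower in liver in FF (median -4.25) and in FFPE (median -3.48), beside 27.6% and 24.3% of all probe sets. Pcp4, a small calmodulin-binding protein, differed by -7.52 in FF and -7.17 in FFPE. Gap43 of growth cones (-5.52 and -3.41) and Nrgn, neurogranin (-4.54 and -3.7), also bind calmodulin, and Camk2n2 (-4.27 and -3.37) and Camk2n1 (-3.01 and -3.54) inhibit CaMKII. Calm3, a calmodulin gene, differed by -4.23 and -4.33.

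Other kinases of the wider family were called in both directions. Of 12 measured, 6 were lower and 3 higher in liver in FF (median -0.38), beside 27.6% and 32% of all probe sets, and 3 were lower and 3 higher in FFPE (median -0.01), beside 24.3% and 22.6%. Dclk1, a microtubule-linked kinase of neurons, was lower by -5.7 and -6.86. Pnck, also called CaMKI beta, was lower by -2.34 and -1.29, and Camk1g, CaMKI gamma, by -2.71 in FF, while its FFPE difference was -0.1 (adjusted p = 0.631). Mylk, the myosin light chain kinase, was higher in liver, by 2.24 and 2.86, and so was the death-associated kinase Dapk2, by 1.28 and 1.03.

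Phosphatases that oppose or parallel the kinases were mostly lower in liver, 7 of 8 in FF (median -1.93) and 6 of 8 in FFPE (median -1.56), with 0 higher. The lower calls over all probe sets, here and for the 2 lists that follow, were the same 27.6% in FF and 24.3% in FFPE, and the higher ones 32% and 22.6%. Ppm1e, a phosphatase of CaM kinases, differed by -5.23 and -2.68, and the calcineurin genes Ppp3ca by -4.46 and -4.79, Ppp3cb by -3.32 and -3.57, and Ppp3r1 by -2.79 and -2.28. Of 10 genes of calcium entry and release 8 were measured. In FF 6 were lower and 1 higher (median -3.09), and in FFPE 6 were lower and 2 higher (median -2.81). The ryanodine receptor Ryr2 was lower by -5.2 and -3.18, the NMDA receptor subunit Grin2b by -4.29 and -3.86, the plasma membrane calcium pump Atp2b2 by -3.58 and -4.37 and the reticulum calcium pump Atp2a2 by -3.31 and -3.97. The calcium channel gene Cacna1d, named after its values were seen, passed in opposite directions, at -1.14 in FF and 2.8 in FFPE. Of 15 substrates 12 were measured, with 11 lower and 1 higher in FF (median -2.27) and 9 lower and 1 higher in FFPE (median -0.68). Among them were the synaptic Rac activator Kalrn (-6.32 and -6.53), the transcription factor Mef2c (-5.54 and -5.15) and the AMPA receptor subunit Gria1 (-5.13 and -3.42). The synaptic vesicle protein Syn1 differed by -3.36 and -4.2, and the Rac activator Tiam1 by -3.61 in FF and -0.61 in FFPE. The gene higher in liver was Prkaa2, the alpha 2 subunit of AMPK (1.31 and 0.78), named after its values were seen.

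In brain no kinase probe set passed the test for a change after death, in comparisons in which few of all probe sets passed. At 3 h 0 of the 27 probe sets passed the test for a change shared by FF and FFPE (limma, adjusted p under 0.05, 2 arrays against 2), against 0.0466% of all probe sets, and 2 of the 27 had an unadjusted p under 0.05, against 2168 of all. Both were Camk1d, at 0.44 ± 0.16 (1426389_PM_at, adjusted p = 0.948) and 0.36 ± 0.15 (1452050_PM_at, adjusted p = 0.998). At 18 h 0 of the 27 passed, against 0.0178% of all, and 0 had an unadjusted p under 0.05, against 1790 of all. Single changes from 0 h in FF brain lay between -0.44 (Camk1) and 0.5 (Camk1d) at 3 h and between -0.24 (Camk1) and 0.24 (Camk2a) at 18 h. In FFPE brain they lay between -0.36 (Camkk2) and 0.39 (Camk1d) at 3 h, and between -0.77 (Camk2a 1457311_PM_at) and 0.4 (Camk1d) at 18 h. In brain 0 of the 27 reached 2-fold between single arrays, against 0.313% (FF) and 0.138% (FFPE) of all probe sets at 3 h and 0.2% and 0.0955% at 18 h. In liver the count was also 0, against 0.353% and 0.406% at 3 h and 3.35% and 2.86% at 18 h.

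Markers of brain parts moved between the same brain arrays. The marker lists were chosen with earlier results of these data known, so their counts are descriptions and no test of the lists. The mean level over 8 thalamic neuron markers was 5.68, 6.94 and 5.94 at 0, 3 and 18 h in FF and 5.18, 5.8 and 5.3 in FFPE. At 3 h 4 of the 8 passed as higher, beside 0.0466% of all probe sets passing in either direction. Choroid plexus markers, 7 in all, averaged 4.79, 6.36 and 5.78 on FF arrays and 4.79, 6.02 and 5.75 on FFPE arrays, with 1 of the 7 passed as higher at 3 h. This was Ttr, at 8.68, 12.72 and 12.21 in FF brain and 5.77, 12.52 and 12.03 in FFPE brain, and the other 6, a subset chosen after seeing the data, averaged 4.14, 5.3 and 4.71 in FF and 4.63, 4.94 and 4.7 in FFPE. The striatal markers averaged 9, 8.47 and 8.67 and the neuron markers 10.45, 10.56 and 10.46 on the FF arrays, and none of either list passed at 3 h. The part of these shifts in the kinase values was not tested.

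In liver 1 kinase probe set passed, at 18 h. At 3 h 0 of the 27 passed, against 0.131% of all probe sets, and 2 had an unadjusted p under 0.05, against 3324 of all. They were Camk2g 1423941_PM_at at 0.6 ± 0.21 (adjusted p = 0.529), of which the FFPE pair gave 0.97, and Camk1d 1452050_PM_at at -0.45 ± 0.15 (adjusted p = 0.459). At 18 h 1 of the 27 passed, against 7.83% of all, and 2 had an unadjusted p under 0.05, against 9521 of all. The 1 that passed was again Camk1d 1452050_PM_at, which fell from 5.48 to 4.89 and 4.7 in FF liver and from 4.49 to 4.18 and 3.92 in FFPE liver, with the 18 h array lowest in both. These signals were low, at percentiles 40.1, 29 and 18.7 of the FFPE liver arrays and 50.8 of the FF liver array at 18 h. At 18 h FF liver had moved by -0.78 and FFPE liver by -0.57, and the shared estimate was -0.68 ± 0.15 (adjusted p = 0.0139).

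The other Camk1d probe sets did not pass in liver at 18 h (-0.05 ± 0.16, adjusted p = 0.913, for 1426389_PM_at, and 0.21 ± 0.14, adjusted p = 0.433, for 1438643_PM_at), although the first of them shares its target sequence record with 1452050_PM_at. Without the FF liver array at 0 h the change was -0.55 and did not pass (adjusted p = 0.139). The difference of the liver change from the brain change at 18 h was -0.86 ± 0.21 (adjusted p = 0.055), and 0 of the 27 passed that test, against 2.09% of all probe sets, with 1 at an unadjusted p under 0.05, against 6951 of all. At 3 h the difference was -0.81 ± 0.21 (adjusted p = 0.499), with 0 of 27 passed, against 0.0377% of all, and 2 at an unadjusted p under 0.05, against 2761 of all. Array controls that read RNA quality moved with time in FF liver. For Gapdh the 3' probe set exceeded the 5' one by 0.03, 0.82 and 1.14 in FF liver and 1.04, 1.63 and 1.77 in FFPE liver, while in brain it moved by at most 0.07. For Actb the same gap was 1.09, 2 and 1.9 in FF liver and -0.12, -0.01 and -0.18 in FFPE liver. The part of these shifts in the Camk1d result was not tested.

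**Figure D4:**
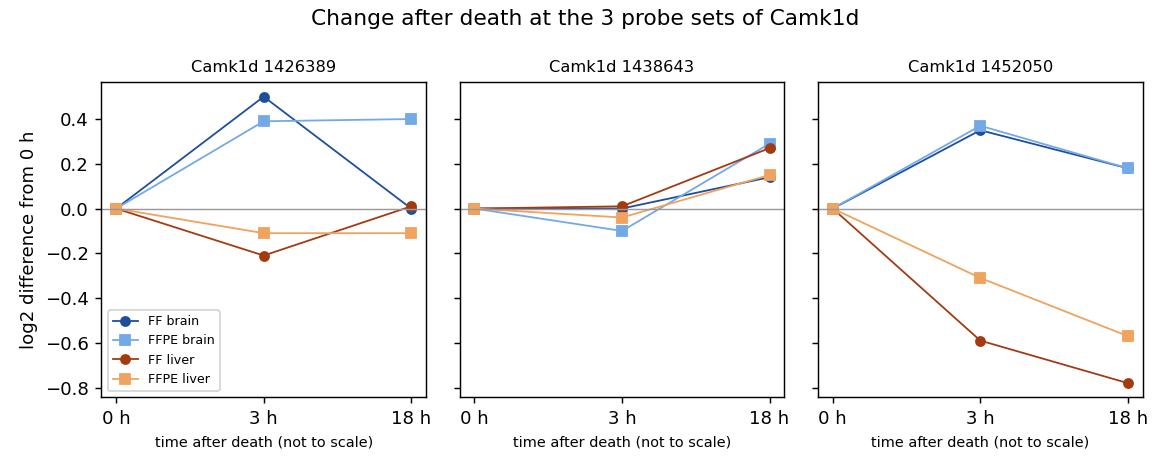
Log2 difference from the 0 h array (vertical axis) at 3 and 18 h after death (horizontal axis, not to scale) for the 3 Camk1d probe sets; each point is 1 array against 1. At 1452050 the liver lines fall to -0.78 (FF) and -0.57 (FFPE), while those of the other probe sets end between -0.11 and 0.27.

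Partners changed in liver at 18 h in few cases and in neither tissue at 3 h, nor in brain at 18 h. Lower were Calm2, a calmodulin gene (-0.6, adjusted p = 0.0132), Pcp4l1 (-0.6, adjusted p = 0.0472), the calcineurin gene Ppp3cb (-0.58, adjusted p = 0.0169) and Ppp1ca, a catalytic subunit of protein phosphatase 1 (-1.01, adjusted p = 0.00579). Higher were Eef2k, the elongation factor 2 kinase (0.8, adjusted p = 0.0187), Mylk (0.58, adjusted p = 0.046) and the inositol trisphosphate receptor Itpr2 (0.5, adjusted p = 0.0471). By list, 2 of 8 calmodulin-related genes and 2 of 8 phosphatases were lower, 2 of 12 other kinases and 1 of 8 calcium channel and pump genes were higher, and 0 of 12 substrates passed, beside 5.09% lower and 2.74% higher over all probe sets. In the test of the liver change against the brain change at 18 h, 1 partner passed, beside 2.09% of all probe sets. This was Nrgn, at -0.95 ± 0.22 (adjusted p = 0.0448), from 0.65 in brain (adjusted p = 0.926) and -0.3 in liver (adjusted p = 0.291).

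Between preservations the probe sets of 1 gene parted in brain, which is the pattern the set was chosen for. Of the 27, 7 were at least 2-fold higher and 13 at least 2-fold lower in FFPE than in FF brain as the mean of 3 times, beside 12.3% and 19.8% of all probe sets, and nothing is read from these counts. Camk4 1439843_PM_at, at -1 after rounding, fell just short of 2-fold, and the nearest beyond it were Camkk2 1424476_PM_at at 1.2 and Camk1d 1426389_PM_at at -1.23. The lowest value of the 27 was -3.99, at Camkk2 1424475_PM_at, and the highest was at Camk2a. The Camk2a differences, FFPE minus FF in brain, were 6.81 ± 0.08 (SD over the 3 times) at 1452453_PM_a_at, 5.21 ± 0.23 at 1442707_PM_at, 0.24 ± 0.09 at 1441734_PM_at, -0.24 ± 0.11 at 1437125_PM_at, -1.38 ± 0.58 at 1457311_PM_at and -3.21 ± 0.09 at 1443876_PM_at. The order was kept at each of the 3 times, and the wide SD at 1457311_PM_at came from the 18 h pair (-2.05, against -1.06 and -1.03).

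These differences spanned 10.03 log2 units over the 6 probe sets of Camk2a. Those of Camkk2 spanned 5.19, from -3.99 ± 0.15 at 1424475_PM_at to 1.2 ± 0.14 at 1424476_PM_at, although these share a target sequence record. Those of Camk4 spanned 3.93, with 2.93 ± 0.11, 2.62 ± 0.12 and 2.36 ± 0.21 at 3 probe sets and -1 ± 0.12 at 1439843_PM_at. Those of Camk2d spanned 3.59, from -1.99 ± 0.27 at 1422659_PM_at to 1.6 ± 0.16 at 1427763_PM_a_at. Over the 1101 genes with at least 4 probe sets the median span was 2.54. Counted from the widest, Camk2a, for which the set was chosen, ranked 1, Camkk2 45, Camk4 186 and Camk2d 244. The rank of Camk2a repeats the reason for its choice and is no test. A span can only widen as probe sets are added, and Camk2a had 6 where Camkk2, Camk4 and Camk2d had 4.

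In the other genes the mean difference was below 0 at every probe set. The probe sets of Camk2g were at -1.6 ± 0.13 and -1.51 ± 0.07, those of Camk1d between -2.05 ± 0.13 and -1.23 ± 0.27, and Camkv at -1.32 ± 0.16. Camk1 was at -2.02 ± 0.02 and -0.28 ± 0.41, and Camk2b, at -0.46 ± 0.08, differed by less than 2-fold. In liver 4 of the 27 differed 2-fold or more, beside 19.3% of all probe sets. They were 2 higher and 2 lower, beside 8.18% and 11.1%. The largest was Camk2a 1457311_PM_at at 2.84 ± 0.31, followed by Camkk2 1424474_PM_a_at at -1.3 ± 0.56, Camk2g 1423941_PM_at at -1.29 ± 0.57 and Camk2a 1452453_PM_a_at at 1.06 ± 0.12. Just under 2-fold was Camk4 1426167_PM_a_at, at 0.98 ± 0.11.

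**Figure D5:**
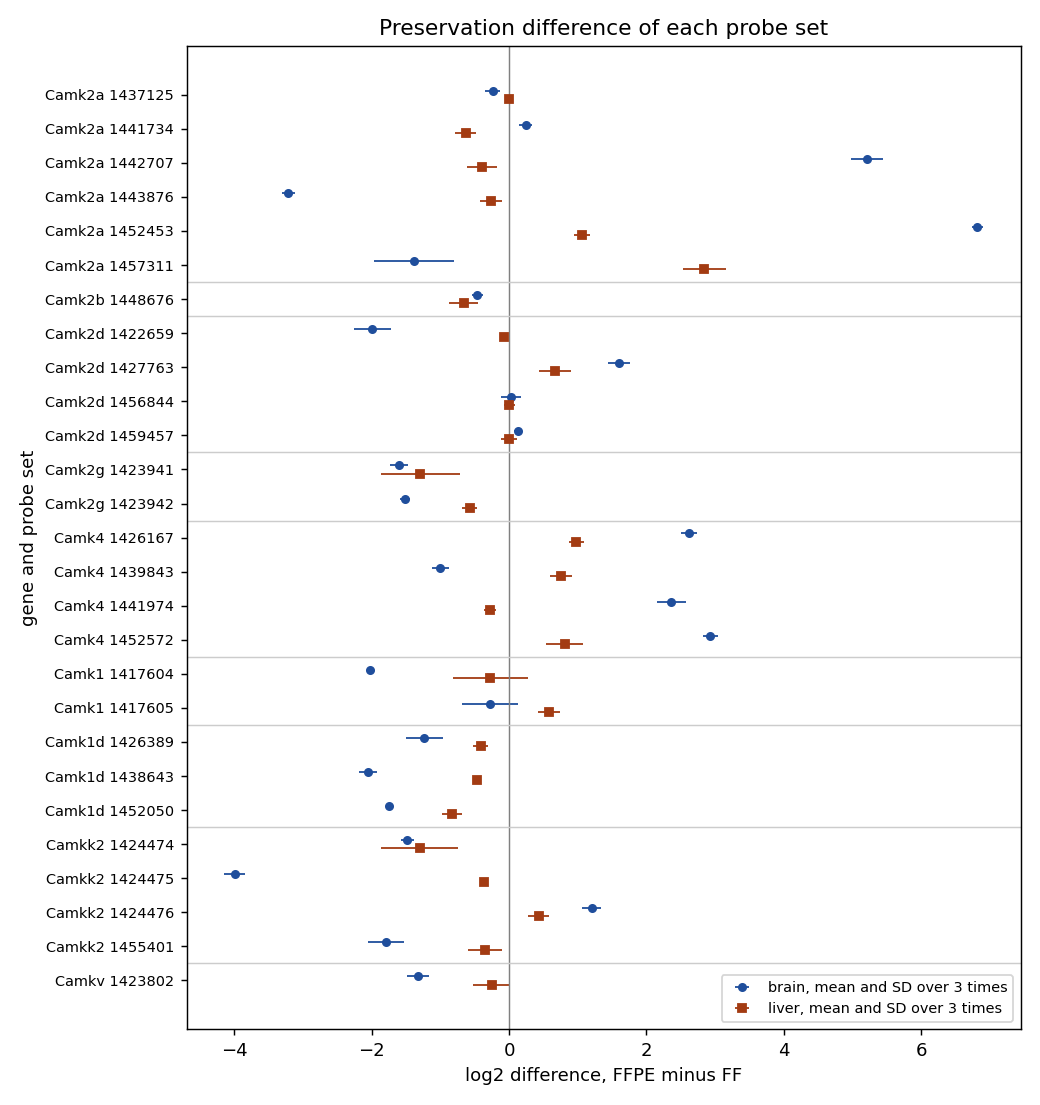
Log2 difference of FFPE minus FF (horizontal axis) for the 27 probe sets (rows), mean with SD over the 3 times; blue circles are brain and brown squares liver. In brain the Camk2a probe sets run from -3.21 to 6.81, and the liver values of the same probe sets from -0.63 to 2.84.

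Patterns over the 12 arrays were most alike, by Pearson correlation among the highest probe sets of 17088 genes, between Camk2a 1457311_PM_at and Mlc1 (r = 0.994), Mturn (0.994), 1700040D17Rik (0.993), Rnf112 (0.991) and Stk11 (0.991). Over the 6 brain arrays alone the same pairs gave 0.828 to 0.91. For Camk2d 1427763_PM_a_at they were Sh3kbp1 (0.988), Zfp59 (0.987), Pde7b (0.984), Arhgap32 (0.981) and Ppp1r16b (0.979), with 0.985 to 0.994 over the 6 brain arrays. The arrays share tissue and preservation, whose part in these values was not tested.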

How the data were processed

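Brain and liver RNA of 12 conditions, 1 array each, was measured. The authors deposited log2 intensities per probe set, which the submitters' processing notes credit to RMA, run in Affymetrix Expression Console. Versions, and whether all arrays were summarised in 1 run, are not given in the sources used here. Arrays have no read depth, and their number limits the precision.

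Of 45141 probe sets, 104 controls were removed and 45037 fitted with no filter on level. GEO's platform annotation named 1 gene for 28898, several for 551 and none for 15588. With limma 3.58.1 (R 4.3.3; lmFit, eBayes with an intensity trend, two-sided, Benjamini-Hochberg over all 45037, threshold 0.05), 8 coefficients were fitted: 4 means of tissue by preservation and, per tissue, the changes from 0 h to 3 h and to 18 h that FF and FFPE share. This left 4 residual degrees of freedom, and all arrays shared 1 spread per probe set. Tissue differences are means over 3 times. FFPE minus FF was not tested. Partner genes were read at their probe set with the highest mean, with up to 4 named per list and comparison by size among those past the threshold. Every kinase probe set is named, and 5 nearest patterns each for Camk2a and Camk2d. The kinases, the gene lists and these rules were chosen with earlier results of these data known. Promoter windows are RefSeq's. Alternatives were no trend, robust estimation, a filter, quantile normalization, single preservations or tissues, other gene summaries, and each array left out.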

Additional observations from a re-analysis of the deposited data

Results flagged for a closer look

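A pair of probe sets had tissue differences of opposite sign in FF and FFPE at each of the 3 times, and the difference between preservations was not tested. At Camk2a 1441734_PM_at, liver minus brain was 0.62 in FF and -0.25 in FFPE. At Camk4 1452572_PM_at it was 0.42 in FF and -1.7 in FFPE. Probe set 1441734_PM_at was at or above the array median on 2 FF liver arrays and 0 FF brain arrays, and 1452572_PM_at on 0 FF arrays. The other Camk4 probe sets were lower in liver in both preservations.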

How the results depend on the processing

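Single probe sets were recomputed only where the main result passed or came near the threshold. Apart from Camk1d 1452050_PM_at at 18 h, all of these were tissue differences, many of them far past the threshold. Of 862 such results, 841 kept their direction and side of the threshold, 12 newly passed, 9 no longer passed and 0 reversed. Other probe sets, with nearly all changes with time, could not enter this count. With each of the 12 arrays left out in turn, the FF tissue count ran from 22 to 25 and the FFPE count from 22 to 23. The liver count at 18 h ran from 0 to 1, at 0 without the FF liver array at 0 h. The count for the difference between tissues at 18 h ran from 0 to 1, and it was 1 without the FFPE liver array at 18 h, 1 without the intensity trend and 1 with the filter at the array median in 3 arrays (29688 probe sets, 23 of the 27). Camk1d 1452050_PM_at gave adjusted p = 0.0334, 0.0339 and 0.038 there. With probe sets of a gene averaged, 0 genes passed in liver at 18 h. Camk2d 1427763_PM_a_at passed in FF under 5 alternatives (smallest adjusted p = 0.0258). Over all probe sets, quantile normalization moved the calls (higher and lower) from 15 and 6 to 16 and 13 in brain at 3 h, from 4 and 4 to 4 and 11 in brain at 18 h, from 18 and 41 to 15 and 21 in liver at 3 h, and from 210 and 733 to 220 and 345 for the difference at 18 h. With each array left out in turn, calls over all probe sets ran from 8 to 77 in brain at 3 h (against 21, highest without the FFPE brain array at 0 h), 6 to 54 in brain at 18 h (against 8, highest without the same array), 18 to 247 in liver at 3 h (against 59, highest without the FF liver array at 18 h), 1915 to 4968 in liver at 18 h (against 3526, lowest without the FF liver array at 0 h), and, for the difference between tissues, 3 to 67 at 3 h (against 17) and 39 to 2733 at 18 h (against 943, lowest without the FFPE brain array at 18 h and highest without the FFPE liver array at 18 h). Liver arrays alone gave 6 calls at 3 h, against 59, and 1238 at 18 h, against 3526. No trend gave 5 against 8 in brain at 18 h, 34 against 59 in liver at 3 h and 4 against 17 for the difference at 3 h. The causes were not tested. No paired analysis was possible because the labels give no replicate numbers to serve as a block, and arrays were matched by time in the model. Few arrays, unknown animals and low signal in liver limit all of these values.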
